A study of Mus musculus with 8 samples.

Results

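Transcripts of 10 genes of glycolysis were followed in type A undifferentiated spermatogonia (A_undiff), the testis cell pool that holds the spermatogonial stem cells, before and after germ cell depletion. The genes were Hk1, Hk2, Pfkl, Pfkp, Aldoa, Pgk1, Eno1, Pkm, Ldha and Pdk1. They were chosen by name from the pathway, with earlier results of these data known. All 10 were found among the 14608 genes of the count table. A_undiff were sorted from testes of adult C57BL/6J mice, 6 to 8 weeks old, as E-cadherin+, CD49f+ (the α6 integrin) and c-KIT- cells. The control group (CTRL) held 4 libraries from untreated mice. The busulfan group (BU) held 4 libraries from mice given 1 dose of 10 mg/kg busulfan, a DNA-alkylating drug that kills most spermatogonia, and taken at day 10 (D10), when surviving A_undiff begin to regrow. The comparison asks how the gene expression of A_undiff that rebuild the germline differs from that of A_undiff in undamaged testis.

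Glycolysis turns glucose into pyruvate in the cytosol and yields ATP and NADH without oxygen. Pyruvate is then either reduced to lactate or carried into mitochondria, where the pyruvate dehydrogenase complex feeds it to the tricarboxylic acid cycle. Many steps have several isozymes from separate genes, and germ cells in meiosis and after it switch to isozymes of their own, such as those of Pgk2, Ldhc and Gapdhs.

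Among the 10 genes, Hk2 rose 1.77-fold and Eno1 fell 1.55-fold in BU, and the other 8 were not differentially expressed genes (DEGs), which here means a Benjamini-Hochberg adjusted p under 0.05 by limma-voom and a fold change over 1.5. Among all genes 1949, 13.3% of those tested, were DEGs, so 2 of 10 was near the background. By direction, 1 of 10 was higher against 6.80% of all genes, and 1 of 10 was lower against 6.54%. With the adjusted p alone, 2 of the 10 were higher (Hk2 and Aldoa) and 3 were lower (Hk1, Pdk1 and Eno1), 5 of 10 in all against 32.1% of the table. The ranges of CTRL and BU libraries did not overlap for these same 5 genes, against 30.3% of all genes. The median log2 fold change of the 10 was -0.08, beside -0.0059 over all genes. Glycolytic transcripts therefore did not move in one direction at D10: 4 of the 10 estimates were above 0 and 6 below.

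The start regions of 3 of these genes are shown because the hexokinase pair moved in opposite directions and Eno1 was the one DEG that fell. They are RefSeq windows of 300 bases (build GRCm38.p6), from 250 bases before to 50 after the annotated start that lies nearest the end of the gene model, read 5′ to 3′ on the gene's strand. Capitals mark ACGTG or GCGTG on either strand (CACGT and CACGC are their reverse complements), the core letters of the element that hypoxia-inducible factor (HIF) binds. ACGTG is also part of CACGTG, the E-box that MYC proteins bind.
Hk2 chr6:82774405-82774704 (minus strand): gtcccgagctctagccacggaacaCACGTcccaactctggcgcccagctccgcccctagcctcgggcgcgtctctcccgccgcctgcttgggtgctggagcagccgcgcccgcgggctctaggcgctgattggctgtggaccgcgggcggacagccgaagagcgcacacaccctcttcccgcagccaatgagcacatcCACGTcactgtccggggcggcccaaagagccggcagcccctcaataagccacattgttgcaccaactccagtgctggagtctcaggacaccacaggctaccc
Hk1 chr10:62379859-62380158 (minus strand): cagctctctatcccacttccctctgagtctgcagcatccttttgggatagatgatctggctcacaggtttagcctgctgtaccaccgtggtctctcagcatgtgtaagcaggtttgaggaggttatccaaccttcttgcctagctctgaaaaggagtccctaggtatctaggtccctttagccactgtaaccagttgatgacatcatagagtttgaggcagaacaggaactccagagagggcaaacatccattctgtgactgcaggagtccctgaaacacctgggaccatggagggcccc
Eno1 chr4:150236458-150236757 (plus strand): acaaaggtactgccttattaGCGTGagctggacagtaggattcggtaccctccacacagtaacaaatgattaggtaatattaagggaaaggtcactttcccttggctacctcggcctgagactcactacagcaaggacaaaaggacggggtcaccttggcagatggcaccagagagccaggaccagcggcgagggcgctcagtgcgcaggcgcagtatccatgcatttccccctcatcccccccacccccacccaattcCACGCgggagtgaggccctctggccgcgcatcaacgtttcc

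The Hk2 window held 2 copies of ACGTG and no GCGTG. The Hk1 window held neither, although a second annotated Hk1 window, chr10:62340372-62340671, held 2 copies of ACGTG and 3 of GCGTG. The Eno1 window held 2 copies of GCGTG. Of all 32851 windows of this length, 19.62% held ACGTG, 32.39% held GCGTG, 43.77% held either and 7.15% held CACGTG. Of the 10 genes, 7 held either core in the window nearest the gene's end. Of their 18 windows, some of which overlap, 14 held either core and 1 held CACGTG. All 10 genes had either core in some window, but a gene with several windows has more chances. The share of all genes with such a window was not computed. A match describes letters only, and which start was used in these cells was not measured.

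Levels below are CPM, a gene's share of all counts of a library on a common scale, after scaling by the trimmed mean of M values (TMM). Libraries held 18152779 to 23875108 counts in CTRL and 17181963 to 24243985 in BU, of which mitochondrial genes took 39.8 to 43.5% and 42.04 to 45.55%. The pool was sorted in bulk, so fewer cells of a type and less RNA per cell cannot be told apart. Per the methods each group had 4 mice, the number of libraries, but the labels do not tie a library to a mouse. The p-values measure the spread between libraries. All 10 listed markers of undifferentiated spermatogonia were in the table, among them Zbtb16, Sall4 and Cdh1. Their summed CPM was 1422 to 1536 in CTRL and 1071 to 1224 in BU, with 3 of 10 lower. By the adjusted p alone 5 were lower and 3 higher. The latter were Gfra1, Etv5 and Itga6, with log2 differences of 0.54, 0.53 and 0.26, under the fold threshold. Of 6 markers of differentiating spermatogonia 4 were higher and 1 lower, and their sum was 170.3 to 198.1 in CTRL and 245.4 to 323.0 in BU. Among them was Kit, at 16.7 ± 2.87 CPM in CTRL and 88.6 ± 14.6 in BU (SD, n = 4), although the gate excluded c-KIT protein. Dnmt3b, the most abundant of the 6 in CTRL, was at a mean of 89.3 CPM there and 89.4 in BU. Sohlh1 was the lower marker, at 38.1 and 23.4. Of 14 immune markers 6 were in the table and all 6 were higher, with a sum of 12.6 to 21.6 in CTRL and 29.9 to 42.6 in BU. Of 11 Sertoli cell markers 6 were in the table, with 2 higher and a sum of 34.9 to 45.8 in CTRL and 41.2 to 56.7 in BU. Of 6 endothelial markers 4 were in the table, with 1 higher and a sum of 21.6 to 24.3 in CTRL and 26.7 to 34.1 in BU. The higher marker was Kdr, at a mean of 6.06 CPM in CTRL and 16.8 in BU, and 2 of the 4 estimates were below 0. Of 8 peritubular and stromal markers 3 were in the table, with 1 higher and 1 lower. Their sum was 54.4 to 58.8 in CTRL and 33.703 to 36.998 in BU. Col1a1 was lower, at a mean of 46.3 CPM in CTRL and 17.6 in BU, and Pdgfra higher, at 7.76 and 14.9. Of 8 spermatocyte markers 1 was lower, and of 6 spermatid markers none was called by limma, edgeR or DESeq2, with 0 at an unadjusted p under 0.05. The part of these cells and stages in the values below was not tested.

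Hexokinases trap glucose in the cell by phosphorylating it, and the glycolytic genes differed most at this step. Hk2 encodes the hexokinase known for being induced in growing and insulin-responsive tissues, and lies at chr6:82725025-82774454 on the minus strand. It was at 18.1, 21.7, 19.2 and 20.4 CPM in CTRL 1 to 4 and at 33.5, 34.3, 34.9 and 37.7 in BU 2 to 5. Every BU library was above every CTRL library. The log2 fold change was 0.82 (SE 0.09, limma-voom adjusted p = 1.78e-06). It stayed between 0.79 and 0.86 over 21 alternative settings, some of which changed only the call rule and so could not move it. Its 95% interval was 0.64 to 1.01, and limma's treat test, which asks whether the fold itself exceeds 1.5, gave an adjusted p of 0.184.

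Hk1, which encodes the hexokinase made in most tissues, lies at chr10:62268855-62379908 on the minus strand and went the other way. It was at 38.6, 33.6, 42.6 and 37.1 CPM in CTRL and at 23.5, 31.1, 27.1 and 30.3 in BU. The groups did not overlap, with the highest BU library, BU 3, below the lowest CTRL library, CTRL 2. The log2 difference was -0.44 (SE 0.10, adjusted p = 0.00243), under the fold threshold. Without BU 3 and BU 5, the BU libraries where Hk1 was highest, it was -0.59 and passed as a DEG. With 1 library left out it was -0.50 to -0.36 and did not pass. An antisense gene, Hk1os, covers 1.84% of its exonic bases.

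Per kb of gene length, a scale used to compare genes, Hk1 was above Hk2 in all 4 CTRL libraries and below it in all 4 BU libraries. The lengths are unions of exons, 8532 bases for Hk1 and 5969 for Hk2. The order and the shares below therefore depend on which transcripts the cells use, which was not measured. Hk2 made up 40.1, 48.1, 39.2 and 43.9% of the summed hexokinase level of the pair in CTRL 1 to 4. In BU 2 to 5 it made up 67.1, 61.2, 64.8 and 64.1%. The shares did not overlap, and the closest libraries were CTRL 2 and BU 3. The within-library log2 ratio of Hk2 to Hk1 went from -0.42 ± 0.24 in CTRL to 0.85 ± 0.15 in BU (SD, n = 4), a difference of 1.27. The two-sided exact permutation test gave p = 0.0286, the smallest that 70 assignments of 8 libraries allow, and p = 0.0857 after adjustment over 6 isozyme ratios. The summed level of the pair was 7.56, 7.58, 8.20 and 7.76 CPM per kb in CTRL and 8.37, 9.39, 9.01 and 9.87 in BU. On this scale the sum was also higher in every BU library, but it too depends on the lengths. In plain CPM the sums of the groups overlapped. CTRL 3 had 42.6 of Hk1 and 19.2 of Hk2, and BU 2 had 23.5 and 33.5.

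**Figure D1:**
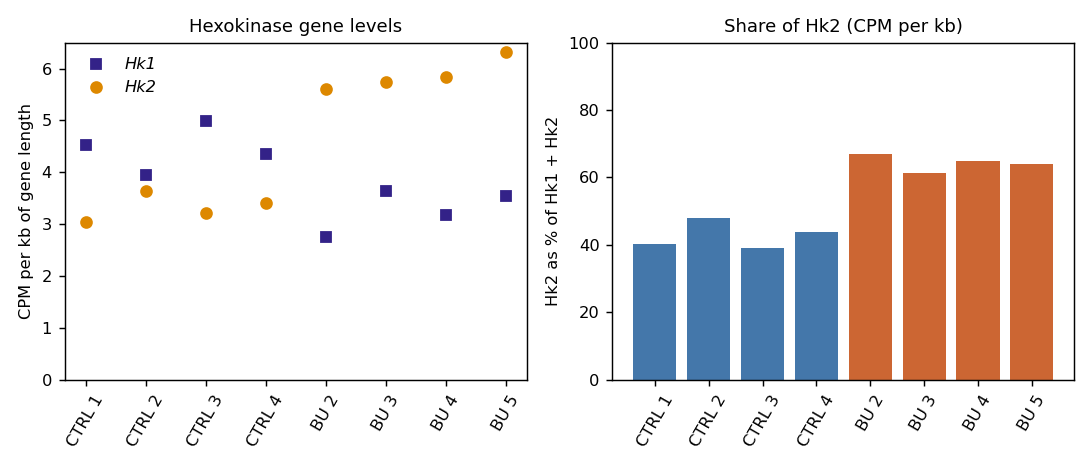
Left, levels of Hk1 (squares) and Hk2 (circles) in CPM per kb of gene length in each library. Right, Hk2 as a percent of the sum of both, with 1 bar per library (blue CTRL, orange BU). On this scale, which divides by the union of exons, Hk1 lies above Hk2 in the 4 CTRL libraries. The order is exchanged in the 4 BU libraries, where Hk2 makes up 61.2 to 67.1% against 39.2 to 48.1%.

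Phosphofructokinase commits sugar to glycolysis and is its main control point, and neither of its 2 genes on the list was a DEG. Pfkp, the platelet-type gene at chr13:6579768-6648777, minus strand, was at 27.7, 32.3, 30.2 and 35.3 CPM in CTRL and at 36.8, 35.4, 29.9 and 30.3 in BU. The groups overlapped, and the log2 difference was 0.08 (SE 0.10, adjusted p = 0.565), with a 95% interval of -0.12 to 0.28. Pitrm1 on the opposite strand shares 5.58% of its exonic bases. Pfkl, the liver-type gene at chr10:77986947-78010083, minus strand, was at 1.76, 2.39, 2.27 and 2.39 CPM in CTRL and at 2.53, 2.67, 1.96 and 3.77 in BU. These rest on 37 to 67 reads a library, and BU 4 lay among the CTRL libraries while BU 5 stood highest. The log2 difference of 0.27 (SE 0.25, adjusted p = 0.444) came with an interval of -0.25 to 0.79, so a change past the fold threshold was not excluded.

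Pfkp made up 86.9 to 88.7% of the sum of Pfkp and Pfkl per kb in CTRL and 80.0 to 88.4% in BU. The log2 ratio of Pfkp to Pfkl differed by -0.20 between the groups (exact permutation p = 0.486, adjusted p = 0.486), and by 0.0019 without BU 5. The muscle-type gene Pfkm averaged 7.57 ± 0.546 CPM in CTRL and 6.05 ± 0.272 in BU (SD, n = 4). Its log2 difference was -0.32 (SE 0.14, adjusted p = 0.092), and the log2 ratio of Pfkm to Pfkl differed by -0.60 (exact permutation p = 0.0571, adjusted p = 0.114).

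Aldolase A, from Aldoa at chr7:126795234-126809108 on the minus strand, splits the doubly phosphorylated sugar into triose phosphates. Aldoa was at 62.6, 57.6, 56.8 and 50.3 CPM in CTRL and at 76.1, 65.1, 66.2 and 69.1 in BU. All BU libraries were above all CTRL libraries, with CTRL 1 and BU 3 closest. The log2 difference was 0.28 (SE 0.08, adjusted p = 0.00957), a 1.22-fold difference that did not reach the fold threshold in any alternative that kept this threshold.

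Pgk1 encodes phosphoglycerate kinase, which makes ATP from the phosphorylated triose. It lies at chrX:106187100-106203699 on the plus strand and was at 2.99, 2.29, 2.14 and 2.43 CPM in CTRL and at 2.24, 2.59, 2.32 and 2.19 in BU. The groups overlapped fully, on 36 to 65 reads a library, and the log2 difference was -0.05 (SE 0.22, adjusted p = 0.893; 95% interval -0.52 to 0.42). This low level is uncertain, because 51.65% of the 100-base windows of its transcripts also occur in other genes, among them Pgk1-rs7. How reads that fit several genes were counted is not given in the sources used here.

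Enolase converts phosphoglycerate to phosphoenolpyruvate, and its gene Eno1, at chr4:150236721-150248879 on the plus strand, was the member that fell. It was at 55.9, 53.4, 57.0 and 53.8 CPM in CTRL and at 40.1, 38.3, 29.4 and 34.6 in BU. The CTRL libraries lay within a narrow range, every BU library was below it, and BU 4 was lowest. The log2 fold change was -0.63 (SE 0.09, adjusted p = 2.81e-05). Its size was close to the fold threshold: without BU 4 it was -0.55 and Eno1 was no longer a DEG. Of the 100-base windows of its transcripts 20.42% also occur in 4 other genes, Eno1b among them, so part of the count cannot be assigned with certainty.

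Pyruvate kinase closes glycolysis by making ATP and pyruvate. Its gene Pkm, at chr9:59656368-59679375 on the plus strand, was at 107.2, 100.5, 111.4 and 102.8 CPM in CTRL and at 107.8, 103.2, 80.9 and 102.7 in BU. Only BU 4 lay outside the CTRL range. The log2 difference was -0.11 (SE 0.08, adjusted p = 0.332; 95% interval -0.27 to 0.06), an interval that excludes the fold threshold. The table counts whole genes, so the splice forms of Pkm were not told apart, and Gm49759 overlaps 15.34% of its exonic bases on the same strand.

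Ldha encodes the lactate dehydrogenase subunit best known for reducing pyruvate to lactate, and lies at chr7:46841475-46855627 on the plus strand. It was at 25.6, 18.4, 19.9 and 21.9 CPM in CTRL and at 17.4, 17.9, 15.9 and 23.5 in BU. The groups overlapped, since BU 5 was above 3 of the 4 CTRL libraries. The log2 difference was -0.22 (SE 0.12, adjusted p = 0.196; 95% interval -0.48 to 0.04). Ldhb, the gene of the other somatic subunit, averaged 3.73 ± 0.847 CPM in CTRL and 5.003 ± 1.15 in BU (SD, n = 4), and the log2 ratio of Ldhb to Ldha differed by 0.63 (exact permutation p = 0.143, adjusted p = 0.171).

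Pdk1 encodes a kinase that inhibits the pyruvate dehydrogenase complex and so holds pyruvate in the cytosol. It lies at chr2:71873224-71903858 on the plus strand and was at 90.3, 82.5, 85.9 and 97.3 CPM in CTRL and at 69.96, 73.4, 62.2 and 70.5 in BU. The groups did not overlap. The log2 difference was -0.37 (SE 0.07, adjusted p = 7.73e-04), a 1.29-fold difference under the fold threshold. The sister kinase genes Pdk2 and Pdk3 were not DEGs, at 0.24 (SE 0.18, adjusted p = 0.34) and 0.04 (SE 0.09, adjusted p = 0.80). The log2 ratio of Pdk2 to Pdk1 differed by 0.56 and that of Pdk3 to Pdk1 by 0.41 (exact permutation p = 0.0286 and p = 0.0857), and neither passed after adjustment over the 6 ratios (p = 0.0857 and p = 0.129). Pdk2 was above its other BU libraries in BU 3, at 15.9 CPM against 8.20 to 9.36, and without BU 3 its log2 difference was -0.0211.

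**Figure D2:**
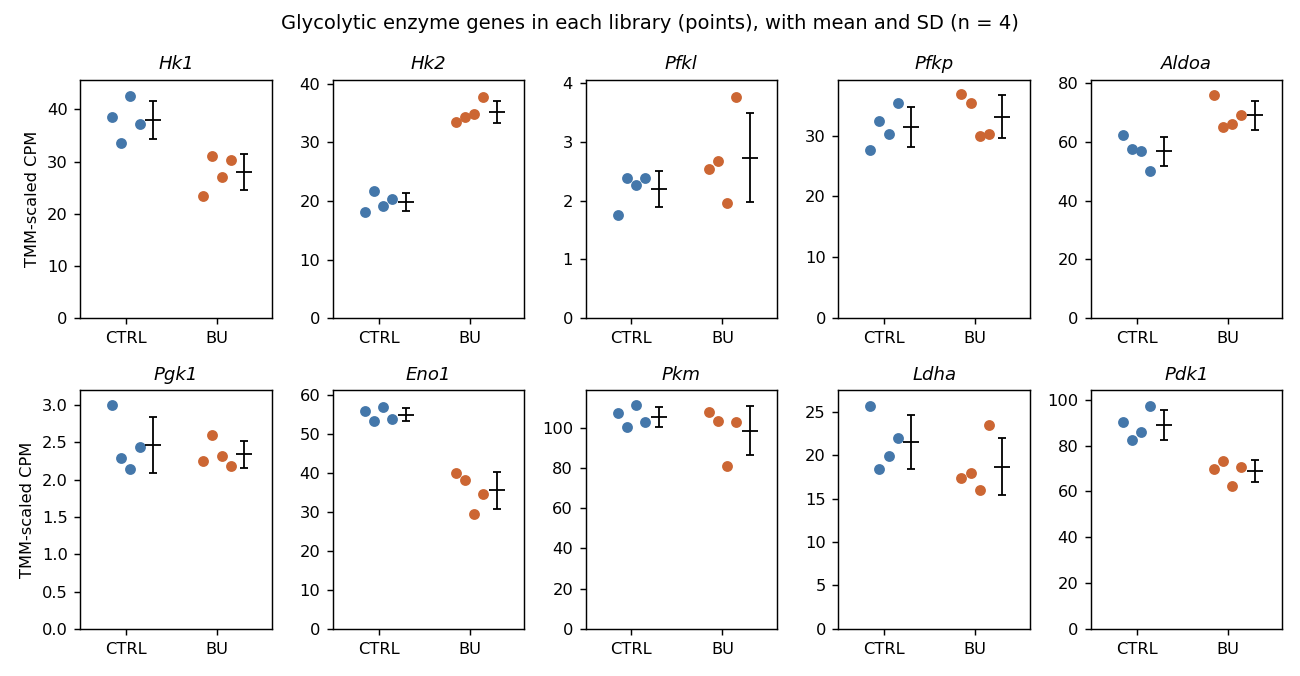
TMM-scaled CPM of each gene in each library (points; blue CTRL, orange BU), with the mean and SD of each group in black (n = 4) and each axis starting at 0. Hk2 and Aldoa lie higher and Hk1, Eno1 and Pdk1 lower in BU with no overlap of the groups, and the other 5 genes overlap.

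**Figure D3:**
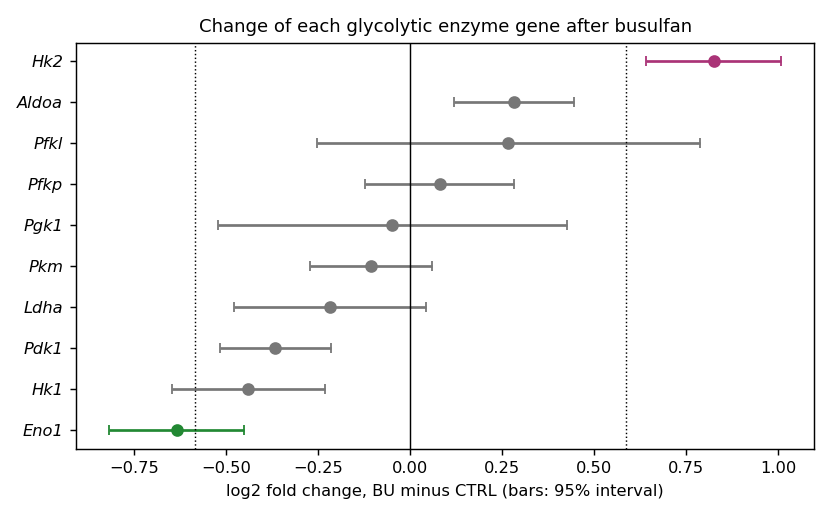
Log2 fold change of each gene, BU minus CTRL, with bars of the 95% interval and dotted lines at a 1.5-fold change. Hk2 at 0.82 and Eno1 at -0.63 are the DEGs, in purple and green. Pfkl and Pgk1 have the widest bars.

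BU 4 was the lowest BU library for 6 of the 10 genes and the highest for 0. The summed CPM of the 10 genes was 350.8 in BU 4, 403.9 to 409.9 in the other BU libraries and 404.8 to 430.6 in CTRL. BU 4 also had the highest summed CPM of the differentiating markers, 323.0. It had the highest level of Kit, which is part of that sum, at 110.2 CPM. Whether this bears on its low glycolytic transcripts was not tested. CTRL 2 was the lowest CTRL library for 5 of the 10 genes and had the lowest CTRL sum.

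Per kb of gene length the 10 genes spanned a wide range. In CTRL the order was Pkm at 21.1 ± 0.967 CPM per kb (SD, n = 4), Aldoa at 15.1, Pdk1 at 11.4, Eno1 at 10.2, Ldha at 6.49, Hk1 at 4.45, Hk2 at 3.33, Pfkp at 2.34, Pgk1 at 1.10 and Pfkl at 0.330. No neighbours in this order overlapped between libraries. In BU the order was Pkm at 19.7 ± 2.41, Aldoa at 18.4, Pdk1 at 8.88, Eno1 at 6.62, Hk2 at 5.88, Ldha at 5.64, Hk1 at 3.28, Pfkp at 2.47, Pgk1 at 1.04 and Pfkl at 0.409. There Pkm overlapped Aldoa, and Eno1, Hk2 and Ldha overlapped in turn. Hk2 thus moved from below Hk1 to a level next to Ldha, and Aldoa closed on Pkm. Gene length here is the union of exons, so a gene whose cells use a short transcript is set too low on this scale.

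Ldhc, Pgk2 and Gapdhs, isozyme genes typical of later germ cells, had mean levels per kb above Ldha, Pgk1 and Gapdh, but not every such gene did. The genes compared here, apart from Ldhc and the members, were chosen after their values were seen. Ldhc was at 17.8 ± 3.21 CPM per kb in CTRL and 18.1 ± 5.33 in BU, against 6.49 ± 0.942 and 5.64 ± 0.994 for Ldha. Pgk2 was at 9.46 ± 2.29 and 12.1 ± 4.30, against 1.10 ± 0.167 and 1.04 ± 0.0799 for Pgk1, whose count may be too low because 51.65% of its 100-base windows occur in other genes against 0% for Pgk2. Gapdhs was at 5.32 ± 1.23 and 5.03 ± 0.690, against 1.97 ± 0.272 and 2.66 ± 0.423 for Gapdh, of whose 100-base windows 20.86% occur in 86 other genes. This order depended on gene length. In plain CPM Gapdhs averaged 8.56 in CTRL and 8.10 in BU, against 8.15 and 11.0 for Gapdh. The means of Ldhc and Pgk2 stayed above those of Ldha and Pgk1 in plain CPM. Pdha2, the testis gene of a pyruvate dehydrogenase subunit, was at 3.57 ± 0.180 and 4.43 ± 1.00, against 5.39 ± 0.395 and 4.52 ± 0.522 for Pdha1. Eno4, an enolase gene known from sperm, was at 2.79 ± 0.173 and 2.72 ± 0.467, below Eno1 at 10.2 ± 0.312 and 6.62 ± 0.875. Ldhc, Pgk2 and Gapdhs were not DEGs, with log2 differences of -0.03 (SE 0.16), 0.31 (SE 0.22) and -0.08 (SE 0.17). The sign of Ldhc turned in some alternatives, to 0.0113 with edgeR and 0.0229 with DESeq2. Of spermatid markers Prm1 and Prm2 were at 41.5 and 61.6 CPM in CTRL and at 39.4 and 59.1 in BU, and how far RNA of later germ cells enters these levels was not tested.

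**Figure D4:**
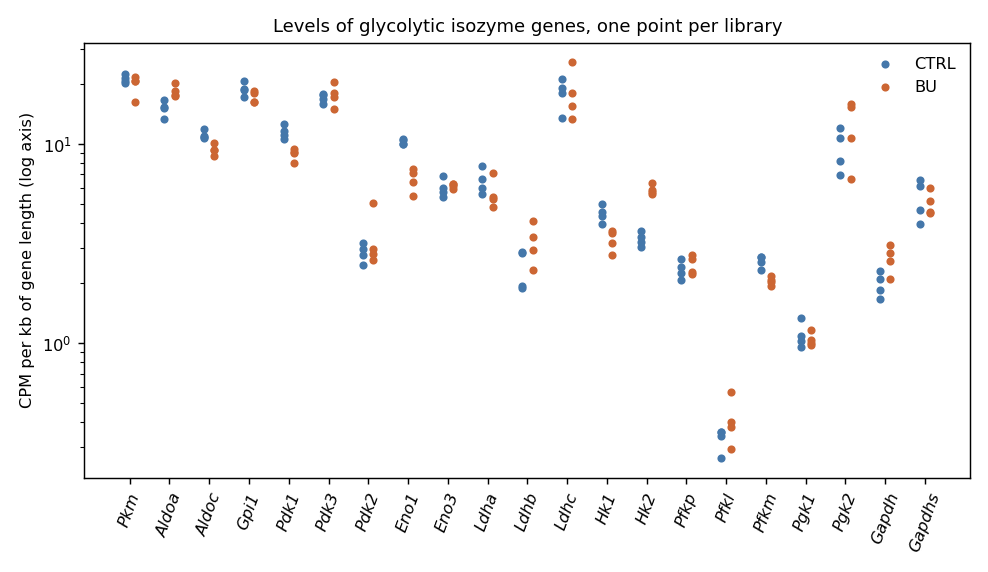
CPM per kb of gene length (log axis) of the glycolytic genes and their isozymes in each library (blue CTRL, orange BU). Ldhc lies above Ldha and Pgk2 above Pgk1 in every library, and Hk1, Hk2, Aldoa, Eno1 and Pdk1 are the members whose groups are separated.

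Genes around glycolysis were read from the same fit in 9 lists grouped by function, with 121 of 144 listed genes in the table. Of these 3 were higher and 7 lower, 8.26% against the 13.3% of all genes. The other glycolytic enzymes had 0 DEGs among 18 (median log2 fold change 0.01), with 6 at an unadjusted p under 0.05 by limma and 0 DEGs by edgeR and DESeq2. The share of all genes at that unadjusted p was not computed, here and for the lists below, so these counts have no background. By limma's adjusted p alone 3 of the 18 passed, against 32.1% of all genes. Gpi1, whose enzyme works between hexokinase and phosphofructokinase, had 121 ± 9.12 CPM in CTRL libraries and 111 ± 7.19 in BU (log2 difference -0.12, SE 0.07).

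Glucose and lactate transport had 0 DEGs among 10 (median 0.01), with 5 at an unadjusted p under 0.05 by limma and 0 DEGs by edgeR and DESeq2. Slc2a1, the main glucose transporter gene of dividing cells, came close to the threshold upstream of the hexokinases. It was at 80.8, 67.4, 63.8 and 70.2 CPM in CTRL and at 52.0, 49.1, 44.3 and 44.3 in BU, without overlap, and its log2 difference was -0.57 (SE 0.08, adjusted p = 5.7e-05). With library totals in place of TMM it passed as a DEG at -0.59, as it did without BU 2, BU 3 or CTRL 3, between -0.62 and -0.59. Bsg, the chaperone of lactate transporters, was higher without reaching the fold threshold, at 0.51 (SE 0.08, adjusted p = 1.1e-04).

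Among 15 regulators of glycolysis 1 was higher and 2 lower, and the list had the lowest median of the 9, -0.26. Txnip, whose product restrains glucose uptake, was at 194, 204, 215 and 200.4 CPM in CTRL and at 123, 119, 101 and 114 in BU. It fell without overlap (log2 fold change -0.84, SE 0.06, adjusted p = 4.1e-08), although Gm15441 on the opposite strand covers 19.4% of its exonic bases. Mlxipl, which encodes the glucose-responsive transcription factor ChREBP, rose by 0.76 (SE 0.12). Mycn, a MYC family gene, fell by 0.75 (SE 0.12). Hif1a, which encodes the oxygen-regulated subunit of HIF, averaged 73.2 ± 2.30 CPM in CTRL and 69.98 ± 1.35 in BU (log2 difference -0.06, SE 0.06, adjusted p = 0.45). Of 16 HIF targets outside glycolysis none was higher and 2 were lower (median -0.15). They were Ddit4, an inhibitor of mTORC1, at -1.28 (SE 0.18), and Kdm3a, a histone demethylase gene, at -0.61 (SE 0.06), which was no longer a DEG without CTRL 1 (-0.57). Bnip3l, a mitophagy receptor gene and the most abundant of the list per kb, was at 0.06 (SE 0.06).

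At the exits from glycolysis, pyruvate entry to mitochondria had 1 lower DEG among 13 (median 0.07). It was Pdp1, the phosphatase gene that counteracts the Pdk kinases, which was at 53.6, 48.5, 53.7 and 50.8 CPM in CTRL and at 33.9, 30.4, 29.1 and 32.1 in BU. Pdp1 fell by 0.73 (SE 0.08, adjusted p = 1.8e-06), so both the kinase gene Pdk1 and the opposing phosphatase gene were lower in BU, the former under the fold threshold. Dld, after Pdk3 the most abundant gene of the list per kb, was at 0.07 (SE 0.07). The pentose phosphate pathway had 1 higher DEG among 13 (median 0.04), H6pd of the endoplasmic reticulum at 0.88 (SE 0.15), and Tktl1 and Taldo1, the most abundant per kb, were at 0.04 and -0.32. Gluconeogenesis and glycogen had 1 higher and 1 lower among 10 (median -0.13). Pygl, a glycogen phosphorylase gene, fell by 0.81 (SE 0.08). Pck2, the gene of the mitochondrial enzyme of phosphoenolpyruvate synthesis, rose by 0.69 (SE 0.21). It was no longer a DEG without CTRL 1 (0.58) or CTRL 3 (0.66). The abundant genes Pygb and G6pc3 were at -0.22 (SE 0.07) and -0.37 (SE 0.08), under the fold threshold. The tricarboxylic acid cycle had 0 DEGs among 16 (median 0.08), with 6 at an unadjusted p under 0.05 by limma and 0 DEGs by edgeR and DESeq2. Its most abundant genes per kb were Mdh2 at 0.01 (SE 0.05), whose sign turned with library totals (-0.0151), and Sdhd at -0.11 (SE 0.08). The cytosolic NADH shuttles, which like Ldha regenerate the NAD of glycolysis, had 1 lower DEG among 10 (median 0.10), the mitochondrial aminotransferase gene Got2 at -0.83 (SE 0.10), while the abundant Mdh1 and Slc25a11 were at -0.29 (SE 0.10) and 0.28 (SE 0.12).

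**Figure D5:**
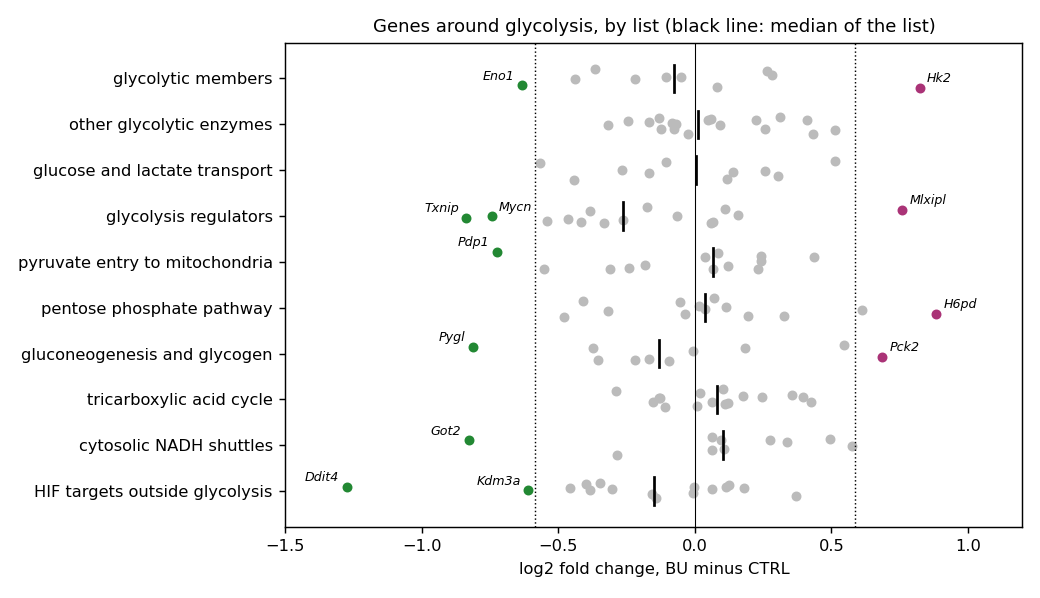
Log2 fold change, BU minus CTRL, of each gene in the glycolytic list and the 9 lists around it (points spread vertically at random), with dotted lines at a 1.5-fold change and a black line at each list's median. DEGs are coloured and named, purple when higher and green when lower. Most points lie between the dotted lines, and the medians lie between -0.26 and 0.10.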

How the data were processed

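RNA-seq libraries of sorted A_undiff (4 CTRL, 4 BU) had been made with SPIA amplification and 100 bp paired-end sequencing. The deposited table, made by the authors with the RNAsik pipeline, gives raw counts per gene, on the GRCm38 build with featureCounts, edgeR and limma (per the submitters' processing notes). The aligner, annotation release and strand setting are not given in the sources used here. Of the deposited columns, the raw counts and the gene length (in bases, used for CPM per kb) were used. The authors' own comparison columns and 8 further columns of per-sample CPM were not used. The table holds genes with at least 1 CPM in at least 4 libraries, and filterByExpr removed none. Since the labels number the BU samples differently from their columns (2 to 5), the latter were used as members of the group only.

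Counts were scaled by TMM and tested with limma-voom (limma 3.58.1, edgeR 4.0.16, R 4.3.3), two-sided, over all 14608 genes, and calls needed an adjusted p under 0.05 and a fold change over 1.5. The procedure was tested on simulated counts. Isozyme ratios used a pseudocount of 0.5 counts, 6 ratios and all 70 assignments of the libraries. Alternatives were other tools (edgeR's quasi-likelihood test, DESeq2 1.42.0), scalings, filters, call rules and libraries left out. Libraries were left out singly, and BU 3 with BU 5, a pair picked with earlier results of these data known. Neither the labels nor the methods set that pair apart. Text names the 10 members, every DEG of the 9 lists around them, the 2 most abundant genes per kb of each list and the genes of a ratio, and says where others were added. Members and lists were chosen with earlier results of these data known. Shared sequence and overlaps came from GENCODE M21, and start windows from RefSeq.

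Of 6 Leydig cell markers 1 was in the table and of 5 red blood cell markers 1, and neither was called. The median SE of the log2 fold change of the 10 members was 0.092.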

Additional observations from a re-analysis of the deposited data

Results flagged for a closer look

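In 90 groups of 4 libraries, 3 values stood far from the other libraries of their group, by a gap to the nearest one of over 0.829 of the group's range. Chance gives about 1 such value in 20 groups. G6pc3, a glucose phosphatase gene, was at 25.85 CPM in BU 2 and at 22.89 to 23.36 in the other BU libraries, a gap of 0.843 of the range. Pdk2 was at 15.87 CPM in BU 3 and at 8.199 to 9.356 in the others, a gap of 0.849. The log2 ratio of Pdk2 to Pdk1 was -0.9099 in BU 3 and -1.678 to -1.612 in the others, a gap of 0.915. None of the 10 glycolytic genes had such a value in either group.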

How the results depend on the processing

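Hk2 was a DEG under every scaling, tool, filter and left-out library tried, though not with a fold threshold of 2 or limma's treat test, under which 0 of the 10 glycolytic genes passed against 5 by the adjusted p alone. Leaving out 1 library each gave 1 to 2. All-gene calls went from 1949 to 1242 with a CPM of at least 5, 4693 by the adjusted p alone, 664 at a fold of 2 and 375 with treat, and were 1763 to 2021 with 1 library left out. By the adjusted p alone, calls were 3 for other glycolytic enzymes, 4 for transport, 7 for regulators, 3 for pyruvate entry, 4 for the pentose phosphate pathway, 5 for gluconeogenesis and glycogen, 6 for the tricarboxylic acid cycle, 4 for NADH shuttles and 5 for HIF targets. At a fold of 2 they were 1 for HIF targets and 0 for regulators, pyruvate entry, pentose phosphate, gluconeogenesis and shuttles, and with treat 1 for HIF targets, 1 for regulators and 0 for the other 4. With a CPM of at least 5, gluconeogenesis had 1 and shuttles 2, and Pfkl and Pgk1 had no value. Shuttles had 2 with upper quartile scaling, transport had 1 with library totals, pentose phosphate had 2 with DESeq2 and 2 with sample quality weights, and other glycolytic enzymes had 1 without BU 3 and BU 5. With 1 library left out, calls were 0 to 1 for transport, 3 to 4 for regulators, 1 to 2 for pyruvate entry, pentose phosphate and HIF targets, and 1 to 3 for gluconeogenesis and shuttles.

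Among the named genes and ratios, signs turned for these, none of which had passed a test. The ratio of Pfkp to Pfkl gave 0.0556 without BU 3 and BU 5, and -0.3025 to 0.0019 with 1 library left out. Ldhc gave 0.0229 with DESeq2, 0.0113 with edgeR and -0.1824 to 0.0927 with 1 left out. Mdh2 gave -0.0151 with library totals and -0.0044 with quality weights, and -0.0307 to 0.0363 with 1 left out. Pdk2 gave -0.0636 without BU 3 and BU 5 and -0.0211 to 0.3619 with 1 left out. With 1 left out Pdk3 gave -0.042 to 0.1249, Pgk1 -0.118 to 0.051 and Tktl1 -0.0057 to 0.0744. The cause of these turns was not tested.

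No paired analysis was possible because the BU columns do not carry the replicate numbers of the labels. The methods also describe no pairing of untreated with busulfan-treated mice, so a shared replicate number would not by itself make a pair. The groups were compared as unpaired. The exact permutation test of a ratio over 6 libraries could not go below p = 0.0667. Pfkl and Pgk1, with 36 to 67 reads a library, had the highest SEs of the 10 genes, 0.25 and 0.22.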
